A study of Mus musculus with 6 samples.

Results

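The 10 transcripts described here encode proteins that coat hepatic lipid droplets or that start and control the breakdown of the triglyceride inside them. They were taken by name: 4 perilipins (Plin2, Plin3, Plin4 and Plin5), 2 CIDE proteins (Cideb and Cidec), the lipase Pnpla2 with its relative Pnpla3, the lipase inhibitor G0s2 and the lipase coactivator Abhd5. All 10 were found among the 34866 genes of the count table, and all 10 passed the filter on low counts that left 13718 genes for testing. The samples were livers of male C57BL/6 mice aged 8 weeks, 3 given vehicle and 3 given iD1, a compound known here by its code name. For the vehicle samples the label on treatment says untreated, but sample titles and design name a vehicle. The labels state an intraperitoneal injection and free access to food and water, and leave out the dose, the time between injection and sampling, and the time of day. They also leave out whether each library is from its own animal, so the p-values measure the spread between these libraries. 1 vehicle column has a number that no sample title carries, and it is called the unnumbered vehicle replicate.

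A lipid droplet is a core of triglyceride and sterol ester under a phospholipid monolayer studded with proteins. Perilipins cover that surface and limit the access of lipases, and CIDE proteins bring droplets together and pass lipid between them. Lipolysis begins with adipose triglyceride lipase, the product of Pnpla2, which is activated by the product of Abhd5 and held back by that of G0s2. In the liver these droplets store fatty acids that arrive from the blood or are made locally, and release them for oxidation or for export in lipoproteins.

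Totals ran from 23515571 to 37613549 estimated counts per library. Values below are CPM (counts scaled to a common library total, with TMM-adjusted library sizes), and changes are log2 fold changes of iD1 against vehicle from edgeR's quasi-likelihood test. A gene is called where the p-value, adjusted over all tested genes by Benjamini-Hochberg, is at most 0.05. Mitochondrially encoded genes took 10.6% to 13.6% of the counts in vehicle and 8.68% to 10.3% in iD1 libraries. TMM factors were 1.01 to 1.11 in vehicle and 0.878 to 1.01 in iD1, and the part of either in the results below was not tested.

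Of the 10 transcripts, 5 rose and 2 fell in iD1 livers, and 3 did not pass the test. Plin4, Pnpla2, Cidec, Plin5 and Plin2 rose, by 6.19-fold for Plin4 down to 2.06-fold for Plin2. Pnpla3 fell to a level 14.3-fold lower and Abhd5 to a level 1.44-fold lower. Plin3, Cideb and G0s2 were not called. Among all tested genes 16.7% were called, 8.42% higher and 8.30% lower, beside 7 of 10 (70%) here. The same 7 transcripts had no overlap between vehicle and iD1 libraries, 5 of them higher and 2 lower in iD1. Over all tested genes the groups did not overlap in 37.2%, with iD1 higher in 18.5% and lower in 18.7%. The median log2 fold change of the 10 was 0.56, against 0.00 for all tested genes. The 10 were chosen with earlier results of these data known, so these contrasts with all tested genes are descriptions only. With 1 library left out at a time, Plin4, Plin5 and Pnpla2 were called in all 6 fits.

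**Figure D1:**
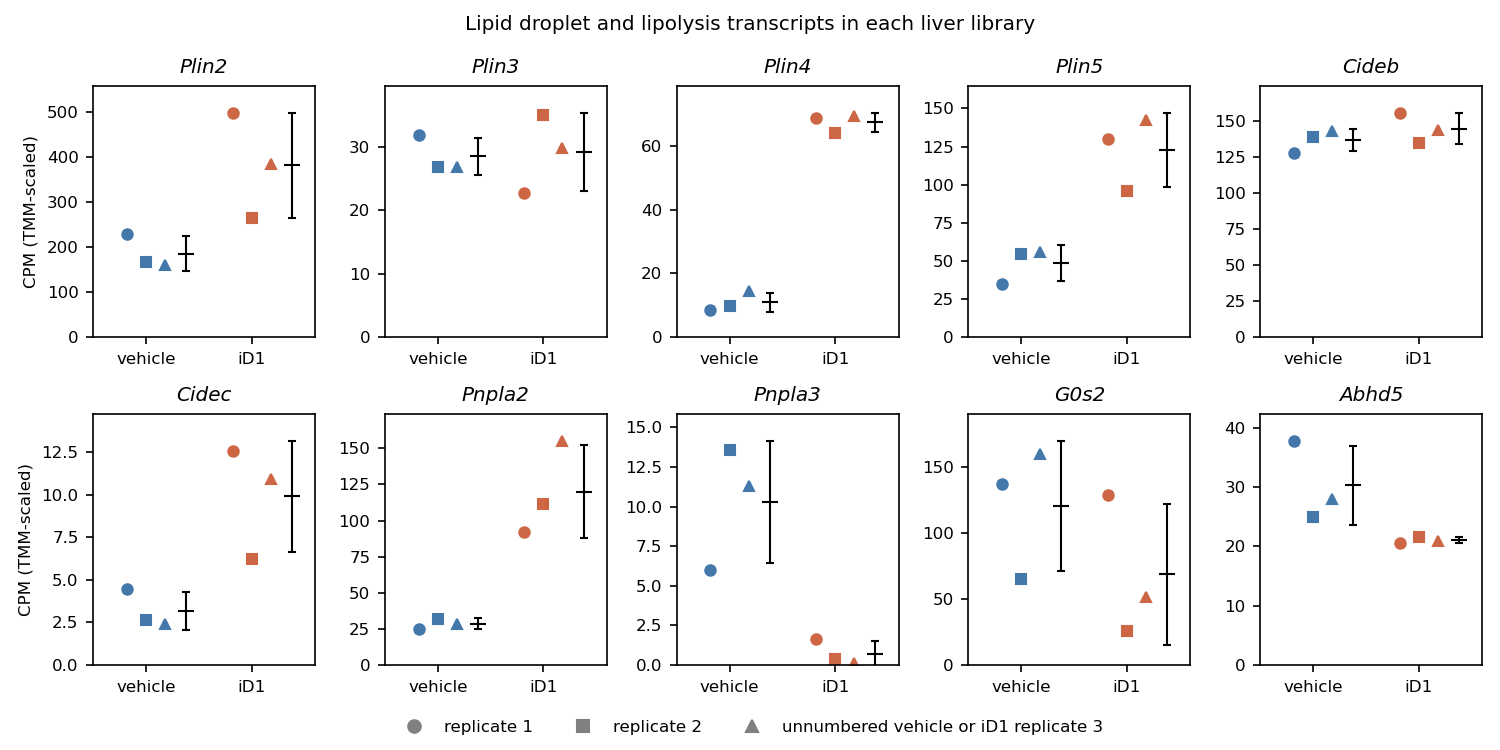
CPM (TMM-scaled, axis from 0) of each of the 10 transcripts in the 3 vehicle and 3 iD1 libraries, with the marker shape giving the library and the black bar the mean and SD of 3 libraries (the lower SD bar of Pnpla3 in iD1 is cut at 0). Plin4 sits between 64.1 and 69.5 CPM in iD1 and between 8.68 and 14.4 CPM in vehicle, while the points of G0s2, Plin3 and Cideb overlap between groups.

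Plin4, a perilipin known best from adipocytes and muscle, where it coats small droplets, changed most among the perilipins. It measured 8.68, 9.66 and 14.4 CPM in vehicle replicates 1 and 2 and the unnumbered vehicle replicate, and 68.8, 64.1 and 69.5 CPM in iD1 replicates 1, 2 and 3. Every iD1 library stood more than 4 times above the highest vehicle library, and the iD1 libraries lay close together. The means were 10.9 ± 3.04 and 67.5 ± 2.96 CPM (SD, n = 3 each). The log2 fold change was 2.63 (SE 0.19, 95% interval 2.21 to 3.04) with adjusted p = 1.14e-04. Ordered by p-value, Plin4 was number 11 of the 13718 tested genes.

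Plin5, which sits on droplets of oxidative tissues and tethers them to mitochondria, measured 34.96, 54.8 and 55.8 CPM in the vehicle libraries. In the iD1 libraries it measured 130, 95.7 and 142 CPM. The groups did not overlap, and vehicle replicate 1 was the lowest library. The means were 48.5 ± 11.7 and 123 ± 24.3 CPM (SD, n = 3 each), with a log2 fold change of 1.34 (SE 0.21, adjusted p = 0.00455). Plin4 and Plin5 placed the 6 libraries in the same order, from vehicle replicate 1 as the lowest to iD1 replicate 3 as the highest. Of the 45 pairs that the 10 transcripts form, 2 did so, and the other was Plin2 with Cidec. As these transcripts all rose without overlap, only the order within each group was free to differ. Once each group's mean was subtracted, the log2 values of Plin4 and Plin5 had a Pearson r of 0.64 over the 6 libraries.

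Both genes lie side by side on chromosome 17 in GENCODE M21 on GRCm38, on the minus strand. Plin4 (ENSMUSG00000002831) runs from 56100591 to 56109803 and Plin5 (ENSMUSG00000011305) from 56111601 to 56117596, with 1797 bases between them. The next gene on that strand, 2081 bases beyond Plin5, is Lrg1, which encodes a secreted glycoprotein of the acute phase response. Lrg1 also rose, from 123 ± 29.4 to 826 ± 454 CPM (SD, n = 3 each; log2 fold change 2.74, SE 0.42, adjusted p = 0.00783). Its highest iD1 library was replicate 2, at 1329 CPM, which was the lowest iD1 library for Plin4 and Plin5. On the other side, Hdgfl2 shares 17 bases of exon with Plin4 on the opposite strand and its log2 fold change was 0.25 with adjusted p = 0.236. Plin3 lies farther along the same chromosome, from 56277476 to 56292873.

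The promoter windows of these neighbours and of the lipase genes Pnpla2 and Pnpla3 are shown because Plin4, Plin5 and Pnpla2 rose together and Pnpla3 fell. Each window runs from 250 bases before to 50 bases after a RefSeq start site (GRCm38.p6), 5′ to 3′ on the gene's strand. Capitals mark matches, on either strand, to any of 10 motifs named in the next paragraph. The windows are Plin4 at chr17:56109733-56110032 (minus strand), Plin5 at chr17:56117499-56117798 (minus strand), Pnpla2 at chr7:141454938-141455237 (plus strand) and Pnpla3 at chr15:84167566-84167865 (plus strand).
Plin4: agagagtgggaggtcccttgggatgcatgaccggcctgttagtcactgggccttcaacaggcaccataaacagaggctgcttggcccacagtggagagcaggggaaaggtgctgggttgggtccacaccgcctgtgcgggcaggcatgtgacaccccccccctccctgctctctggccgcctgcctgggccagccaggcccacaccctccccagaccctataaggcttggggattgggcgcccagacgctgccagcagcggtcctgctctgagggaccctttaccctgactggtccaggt
Plin5: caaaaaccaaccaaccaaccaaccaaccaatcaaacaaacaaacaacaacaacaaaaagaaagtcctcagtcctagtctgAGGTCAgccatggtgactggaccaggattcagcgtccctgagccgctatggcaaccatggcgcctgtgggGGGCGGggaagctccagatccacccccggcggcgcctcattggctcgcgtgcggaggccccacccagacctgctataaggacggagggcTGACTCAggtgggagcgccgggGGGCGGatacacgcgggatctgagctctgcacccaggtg
Pnpla2: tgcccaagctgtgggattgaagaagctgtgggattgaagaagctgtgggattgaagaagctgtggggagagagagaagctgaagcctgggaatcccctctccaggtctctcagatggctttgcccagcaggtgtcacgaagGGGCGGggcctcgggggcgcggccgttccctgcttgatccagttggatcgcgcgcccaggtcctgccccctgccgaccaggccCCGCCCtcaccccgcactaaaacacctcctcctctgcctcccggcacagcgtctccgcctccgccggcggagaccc
Pnpla3: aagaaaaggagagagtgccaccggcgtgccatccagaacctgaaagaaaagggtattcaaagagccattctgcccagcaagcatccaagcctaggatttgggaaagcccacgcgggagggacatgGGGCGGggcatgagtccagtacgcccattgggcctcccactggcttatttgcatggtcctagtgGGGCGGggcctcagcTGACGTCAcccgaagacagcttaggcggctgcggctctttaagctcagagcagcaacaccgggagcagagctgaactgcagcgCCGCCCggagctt

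The Plin4 window held no match to any of the 10 motifs. The Plin5 window held the nuclear receptor core AGGTCA at position -170, the AP-1 motif TGANTCA at position -11 and 2 copies of the GC box GGGCGG. A downstream Plin5 window that overlaps it (chr17:56117249-56117548) held AGGTCA at position 14 and 2 GC boxes, 1 of them the same site as in the first window. Pnpla2 held 2 GC boxes. Pnpla3 held the cAMP response element TGACGTCA at position -46 and 3 GC boxes. Positions are those of the first base of the match relative to the start site. Among 32851 RefSeq promoter windows of the same length, AGGTCA was found in 16.3%, TGANTCA in 7.81%, TGACGTCA in 1.79% and GGGCGG in 35.7%. Over all 12 windows of the 10 genes, none held the PPAR element (AGGTCA copies in direct repeat, 1 base apart, which contains the nuclear receptor core), found in 0.0396% of windows. None held the forkhead motif GTAAACA (3.65%), the sterol response element TCACNCCAC (1.24%) or the STAT3 motif TTCCNGGAA (1.15%). AGGTCA was also in the windows of Plin2 and of Abhd5, which fell, and TGANTCA in those of Cidec and of Cideb, which was not called. GC boxes were in 9 of the 12 windows, also in those of Plin2, Abhd5 and the uncalled Plin3, Cideb and G0s2. The E-box CACGTG (7.15% of windows) was in the Plin2 window, and the glucocorticoid receptor core AGAACA (19.0%) in that of Cideb. These are matches of letters in short windows and say nothing of binding.

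Plin2, the perilipin that covers most droplets in hepatocytes and is stabilised by the lipid it binds, rose as well. It measured 230, 166 and 159 CPM in the vehicle libraries and 496, 264 and 383 CPM in iD1 replicates 1, 2 and 3. The groups did not overlap, though iD1 replicate 2 stood near vehicle replicate 1. The means were 185 ± 39.0 and 381 ± 116 CPM (SD, n = 3 each), with a log2 fold change of 1.04 (SE 0.24, adjusted p = 0.0204). Leaving out vehicle replicate 2 raised the adjusted p to 0.0776, leaving out the unnumbered vehicle replicate to 0.0820 and leaving out iD1 replicate 3 to 0.0586, so the call rests on each of these. Scaling by library size only also ended it (0.0744). Plin2 (ENSMUSG00000028494) lies on chromosome 4 from 86648386 to 86670060.

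Plin3, a perilipin that moves from the cytosol onto newly formed droplets, was not called. Its level was 31.9, 26.9 and 26.9 CPM in the vehicle libraries, and 22.7, 35.01 and 29.9 CPM under iD1. The lowest and the highest value both came from iD1 livers, so the groups overlapped fully. Its log2 fold change was 0.03, with a 95% interval from -0.33 to 0.40 (SE 0.16, adjusted p = 0.910). The sign was kept in 11 of 18 alternative settings. Among others, it changed with upper-quartile scaling (-0.04), with library size only (-0.18) and in fits that left out a library (as low as -0.12).

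Per length, the perilipin mix also differed between the groups. CPM divided by the length of the gene's exons in kb, summed over the 4 perilipins, was 81.6 to 92.1 in vehicle and 141 to 222 in iD1 libraries. Plin4 made up 1.63% to 3.05% of that sum in vehicle and 5.37% to 7.84% in iD1 libraries. The share of Plin3 was 8.63% to 9.14% in vehicle and 2.71% to 6.54% in iD1. Its own mean level per kb was 7.54 in vehicle and 7.71 in iD1, so the lower share reflects the larger sum. Plin2 held the largest of the 4 shares in all 6 libraries, from 53.2% in iD1 replicate 2 to 71.0% in vehicle replicate 1, and its groups overlapped, as did those of Plin5. The sum and the shares depend on the length used. With the longest transcript in place of all exons, an alternative chosen after seeing the data, the sum was 122 to 150 in vehicle and 209 to 347 in iD1, and the share of Plin4 1.01% to 2.04% and 3.45% to 5.33%. The shares of Plin4 and Plin3 again did not overlap between the groups, and none of the shares was tested.

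Cidec, which drives the fusion and growth of droplets and is abundant in white fat and fatty liver, was low in vehicle and rose. It measured 4.46, 2.63 and 2.42 CPM in the vehicle libraries and 12.6, 6.25 and 10.9 CPM in iD1 replicates 1, 2 and 3. No iD1 library was below a vehicle library. The means were 3.17 ± 1.121 and 9.91 ± 3.28 CPM (SD, n = 3 each), with a log2 fold change of 1.65 (SE 0.32, adjusted p = 0.0119). Without vehicle replicate 2 it was no longer called (adjusted p = 0.0554). Cidec (ENSMUSG00000030278) lies on chromosome 6 from 113424634 to 113435760, and its counts ran from 79 to 312 per library.

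Cidec and Plin2 ordered the 6 libraries alike, with iD1 replicate 1 highest and the unnumbered vehicle replicate lowest. Once each group's mean was subtracted, their log2 values still moved together over the 6 libraries (Pearson r = 0.98, given as a description; both come from the same libraries). This was the highest value among the 45 pairs of the 10 transcripts. The lowest, -0.96 for Plin3 with Cideb, was nearly as far from 0, and with so few libraries such values carry little weight. For Plin4 and Pnpla2 the same measure was 0.16, although both rose in every iD1 library.

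Cideb, the CIDE protein of hepatocytes, which acts in droplet fusion and in loading lipid onto lipoproteins, did not pass the test. Its level was 128, 139 and 143 CPM in the vehicle libraries, and 155, 134 and 144 CPM under iD1. The values of the groups interleaved, and the coefficients of variation, 5.74% in vehicle and 7.32% in iD1, were small beside those of Cidec (35.4% and 33.1%). The log2 fold change was 0.08, with a 95% interval from -0.19 to 0.35 (SE 0.12, adjusted p = 0.688), and its sign turned with library size only (-0.12). Exons of Cideb (ENSMUSG00000022219, chromosome 14 from 55754050 to 55758458) share 1136 bases with Nop9 on the opposite strand. Nop9 stood at 12.1 ± 1.07 CPM in vehicle against 11.4 ± 0.90 CPM under iD1 (SD, n = 3 each). Reads of these genes cannot be told apart without strand, and the strand setting of the counting was not given in the sources used here.

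Pnpla2, whose product performs the initial cut of triglyceride, rose in every iD1 library. It measured 24.7, 32.1 and 28.7 CPM in the vehicle libraries and 92.4, 112 and 155 CPM in iD1 replicates 1, 2 and 3. The lowest iD1 library was well above the highest vehicle library. The means were 28.5 ± 3.70 and 120 ± 32.2 CPM (SD, n = 3 each), a change of 4.2-fold (log2 fold change 2.07, SE 0.20, 95% interval 1.62 to 2.52, adjusted p = 4.99e-04). Ordered by p-value it was number 59 of all tested genes. Pnpla2 (ENSMUSG00000025509) lies on chromosome 7 from 141455198 to 141460743.

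Pnpla3, a droplet protein related in sequence to Pnpla2 and known to follow feeding and lipogenic signals, moved the other way. Its level was 6.02, 13.6 and 11.3 CPM in the vehicle libraries, and 1.65, 0.356 and 0.139 CPM under iD1. The iD1 values rest on estimated counts of 41.3, 11 and 3.46, so their size is uncertain, but none reached the lowest vehicle value. The means were 10.3 ± 3.87 and 0.716 ± 0.818 CPM (SD, n = 3 each), and the log2 fold change was -3.84 (SE 0.74, 95% interval -5.68 to -2.0, adjusted p = 0.0235). Leaving out vehicle replicate 2 raised the adjusted p to 0.0705, and leaving out the unnumbered vehicle replicate raised it to 0.0727. Without iD1 replicate 2 it was 0.0888, without iD1 replicate 3 0.0525, and with no filter on low counts 0.0760. Without iD1 replicate 1, the highest iD1 library for Pnpla3, the log2 fold change was -5.27. Pnpla3 (ENSMUSG00000041653) lies on chromosome 15 from 84167837 to 84187236, and 105 bases of its exons overlap Gm49513 on the same strand, a transcript not analysed here.

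Abhd5, whose product binds perilipins and switches on the Pnpla2 lipase once released from them, fell slightly. Its level was 37.8, 24.99 and 28.0 CPM in the vehicle libraries, and 20.6, 21.6 and 20.9 CPM under iD1. The iD1 libraries were almost equal, and all stood below the vehicle libraries. The log2 fold change was -0.52 (SE 0.16, 95% interval -0.87 to -0.18, adjusted p = 0.0464), close to the threshold. It was called without vehicle replicate 2 and in none of the other 5 fits that leave out a library, where the adjusted p was 0.125 without vehicle replicate 1, 0.0833 without the unnumbered vehicle replicate, and 0.0830, 0.0869 and 0.120 without iD1 replicates 1, 2 and 3. It was not called by limma-voom (0.0538) or with non-robust shrinkage (0.0534). Abhd5 (ENSMUSG00000032540) lies on chromosome 9 from 122351608 to 122381524, and 950 bases of its exons overlap the antisense gene A730085K08Rik, which was not analysed here.

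G0s2, a small protein that binds the Pnpla2 lipase and blocks it, varied too much for a call. Its level was 136, 64.9 and 159 CPM in the vehicle libraries, and 128, 25.6 and 51.2 CPM under iD1. Vehicle replicate 2 was low and iD1 replicate 1 high, so the groups overlapped. The log2 fold change was -0.81, with a 95% interval from -2.63 to 1.0 (SE 0.70, adjusted p = 0.496), which holds both a rise and a fall of sizable extent. Without iD1 replicate 1 it was -1.65 (adjusted p = 0.117). G0s2 (ENSMUSG00000009633) lies on chromosome 1 from 193272161 to 193273217, within Lamb3 on the opposite strand, and shares 0 exon bases with it.

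**Figure D2:**
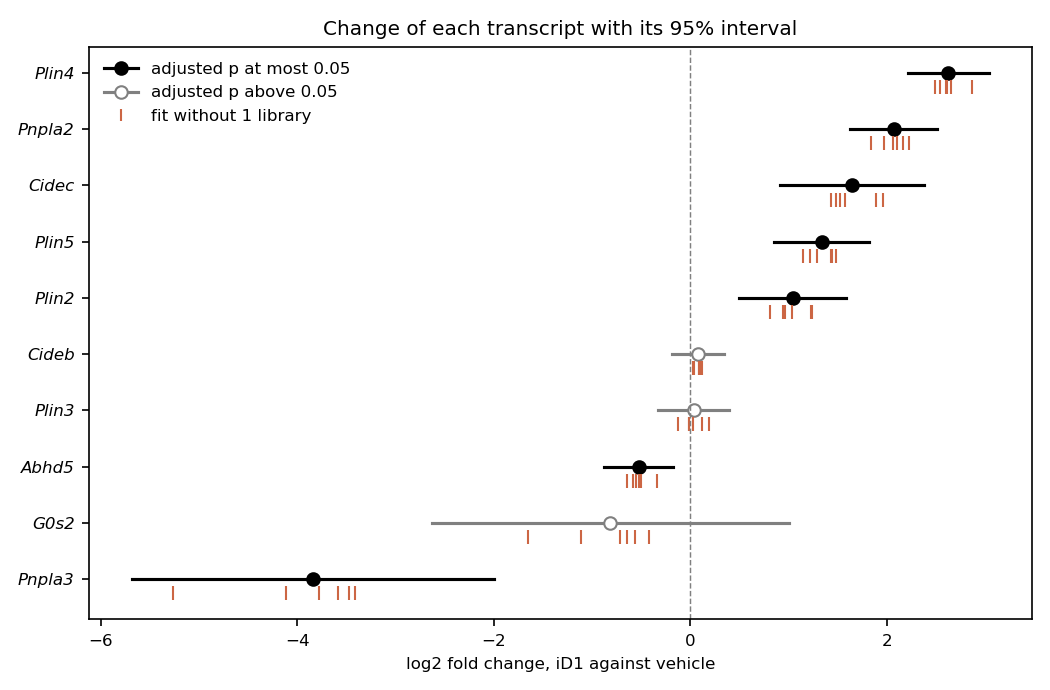
Log2 fold change of iD1 against vehicle for each transcript (circle, filled where the adjusted p is at most 0.05) with its 95% interval (line), and the values of the 6 fits that each leave out 1 library (orange ticks). Plin4 (2.63) and Pnpla2 (2.07) have the highest values with short intervals, whereas the intervals of G0s2 (-2.63 to 1.0) and Pnpla3 (-5.68 to -2.0) are wide.

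Ratios between transcripts were compared within each library for 5 pairs, on the log2 scale with 0.5 CPM added to each value. The ratios printed here include that addition, which sets much of the value where a transcript is as low as Pnpla3 was in iD1. An exact two-sided permutation test of 3 libraries against 3 cannot give a p under 0.1. The ratio of the lipase Pnpla2 to its inhibitor G0s2 was 0.182 to 0.499 in vehicle and 0.721 to 4.31 in iD1 libraries. The groups did not overlap in this ratio, although they overlapped in G0s2 itself, and iD1 replicate 1 was the nearest to vehicle. The difference of the mean log2 ratios was 3.04 (exact permutation p = 0.1, adjusted over the 5 ratios 0.125).

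The ratio of Pnpla2 to its coactivator Abhd5 was 0.658 to 1.28 in vehicle and 4.41 to 7.27 in iD1 libraries, a mean difference of 2.52 on the log2 scale. Pnpla2 to Pnpla3 showed the largest difference of the 5 ratios, 5.31, from 2.32 to 3.87 in vehicle to between 43.2 and 244 in iD1 libraries. With 0.1 or 1 CPM added it was 6.14 or 4.76, and with nothing added (tried after seeing the data) 6.53, from 2.37 to 4.10 in vehicle to between 55.9 and 1115 in iD1 libraries. Cidec to Cideb differed by 1.41. For each of these 3 ratios the groups did not overlap and the exact permutation p was 0.1 (adjusted 0.125). For Pnpla2 to Abhd5 and Pnpla2 to Pnpla3 that outcome was fixed by the single transcripts. Pnpla2 was higher, and Abhd5 and Pnpla3 lower, in iD1 without overlap, so the test adds nothing to them. Cidec to Cideb mostly restates the rise of Cidec, as Cideb was not called. The ratio of Plin5 to Plin2 overlapped between the groups (0.33, exact permutation p = 0.5, adjusted 0.5) and differed by -0.06 without vehicle replicate 1.

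**Figure D3:**
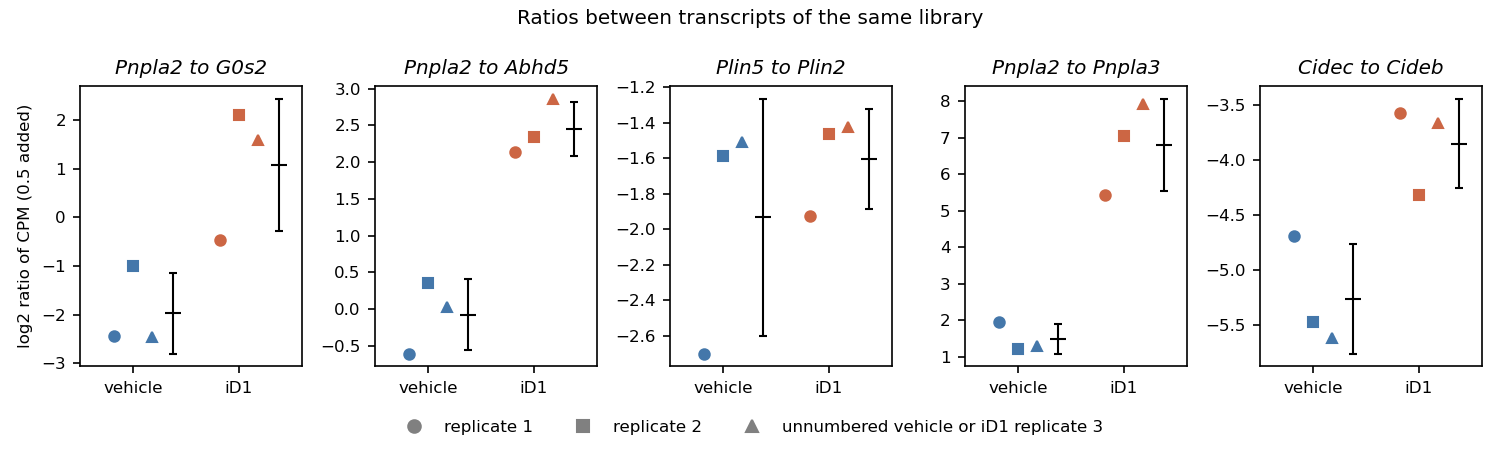
Log2 ratio of the CPM of 2 transcripts (0.5 CPM added to each) in each library, with the mean and SD of 3 libraries in black. For Pnpla2 to G0s2, Pnpla2 to Abhd5, Pnpla2 to Pnpla3 and Cidec to Cideb all iD1 points lie above all vehicle points, and for Plin5 to Plin2 they overlap.

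Levels of different genes can be set side by side only per length. In CPM per kb of exon, G0s2 stood highest in vehicle at 138 ± 56.6, followed by Cideb at 91.7 ± 5.26, Plin2 at 52.7 ± 11.1 and Plin5 at 23.2 ± 5.63 (SD, n = 3). G0s2 and Cideb overlapped in their values, while Cideb, Plin2, Plin5 and Pnpla2 (9.44 ± 1.22) followed each other without overlap. Pnpla2, Plin3 (7.54), Pnpla3 (6.65) and Abhd5 (5.08) overlapped each with the next, and Plin4 (1.89) and Cidec (1.71) came last.

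In iD1 livers Plin2 came first at 109 ± 33.0 CPM per kb, then Cideb at 97.0 ± 7.10, G0s2 at 78.5 ± 61.4, Plin5 at 58.8 ± 11.6 and Pnpla2 at 39.7 ± 10.7 (SD, n = 3). Each of these overlapped with the next. Plin4 followed at 11.7 ± 0.512 and overlapped with neither neighbour, so that it stood above Plin3 (7.71), which it had been below in vehicle. Pnpla3 was last at 0.462 ± 0.529. With the longest transcript as length, Abhd5 moved from place 8 to place 6 in vehicle and Plin3 from 6 to 8, and in iD1 Abhd5 and Cidec traded places.

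**Figure D4:**
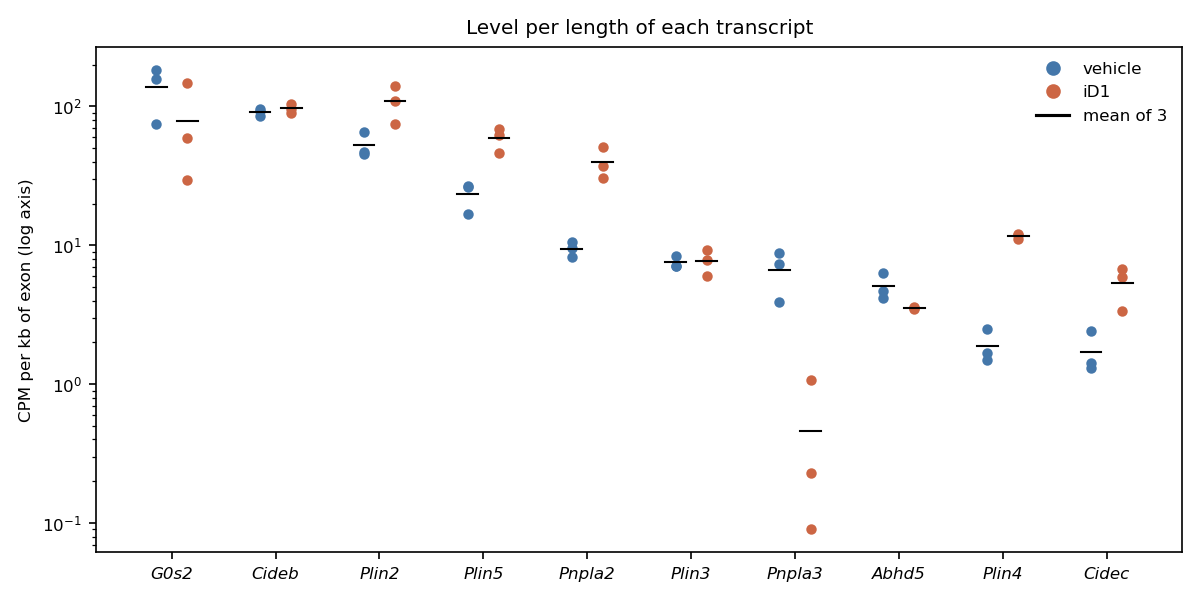
CPM per kb of exon (log axis) of each transcript in the vehicle (blue) and iD1 (orange) libraries, ordered by the vehicle mean, with black lines for the means of 3 libraries. Plin4 goes from 1.89 to 11.7 and passes Plin3, and Pnpla3 goes from 6.65 to 0.462.

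Other genes of droplets and lipolysis were taken in 5 lists, together 72 tested genes besides the 10, of which 21 (29.2%) were called, beside 16.7% of all tested genes. Of these 21, 3 stayed called in every fit that left out 1 library: Acsl3, Lipa and Srebf1. The count called was 8 without vehicle replicate 1, 5 without vehicle replicate 2, 4 without the unnumbered vehicle replicate, 10 without iD1 replicate 2, 4 without iD1 replicate 3 and 20 without iD1 replicate 1. The other 18 lost their call in most or all of those fits, or in 3 of the 6 for Ldah and Mlxipl. Lpin2, Nr3c1 and Creb3l3 stayed called in 2 fits, Dgat1 in 0 and each of the rest in 1. The lists were chosen with earlier results of these data known, and are described by counts and medians with no list test.

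Of 14 tested genes for other proteins of the droplet surface, 1 rose and 2 fell, and the median log2 fold change was -0.06. The small GTPase Rab18 went from 74.4 ± 2.98 to 99.97 ± 10.8 CPM (SD, n = 3), the droplet hydrolase Ldah from 42.3 ± 4.73 to 29.1 ± 3.33 and the lysophospholipid acyltransferase Lpcat1 from 1.85 ± 0.328 to 0.828 ± 0.300. Hsd17b13, a droplet protein of hepatocytes, did not pass (283 ± 27.3 against 394 ± 45.1 CPM, adjusted p = 0.0534). The adipocyte perilipin Plin1 and the CIDE protein Cidea, the relatives of the members that mark fat tissue, stayed at or below 2.04 CPM in every library. With 1 library left out, 0 to 1 of this list were higher and 0 to 2 lower.

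Of 14 tested genes for triglyceride and sterol ester synthesis and droplet budding, 4 rose and 2 fell, with a median of 0.18. The acyltransferases Dgat1, from 12.8 ± 0.716 to 17.2 ± 1.48 CPM, and Soat2, from 18.1 ± 0.612 to 28.8 ± 8.14 CPM, rose, as did the budding factor Fitm2 (46.2 ± 1.90 to 69.5 ± 14.8 CPM) and the phosphatidate phosphatase Lpin2 (248 ± 44.7 to 460 ± 141 CPM; SD, n = 3). Acsl3, an acyl-CoA synthetase of nascent droplets, fell from 46.2 ± 7.38 to 23.01 ± 4.78 CPM (adjusted p = 0.00569), and the acyltransferase Agpat2 from 183 ± 19.5 to 130 ± 18.1 CPM. Dgat2 did not pass (297 ± 33.0 against 275 ± 32.3 CPM, adjusted p = 0.652). Lpin1 had the largest change of the list and did not pass either (145 ± 109 against 624 ± 150 CPM, log2 fold change 2.11, adjusted p = 0.0968). Gpat4 also did not pass (149 ± 39.1 against 221 ± 39.2 CPM, adjusted p = 0.102). For both Lpin1 and Gpat4 the iD1 libraries stood above the vehicle libraries without overlap. With 1 library left out, between 0 and 2 of this list were higher and between 1 and 2 lower, and with library size only none was higher.

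Of 14 tested genes for other lipases and their control, 0 rose and 1 fell, with a median of -0.07. The fall was that of Lipa, the acid lipase of lysosomes, from 185 ± 8.75 to 117 ± 9.78 CPM (SD, n = 3; log2 fold change -0.65, SE 0.12, adjusted p = 0.00723). The cytosolic lipases that act after Pnpla2 were not called: hormone-sensitive lipase, Lipe, stood at -0.22 on the log2 scale (SE 0.16) and monoglyceride lipase, Mgll, at 0.39 (SE 0.16, adjusted p = 0.120). Ces3a and Ces1d, the most abundant of the list in CPM, had 0.06 (SE 0.20) and 0.17 (SE 0.19). Among the other patatin-like genes, Pnpla1, Pnpla5, Pnpla6, Pnpla7 and Pnpla8, none was called. With 1 library left out, 0 to 1 of this list were higher and 1 to 3 lower, and with library size only 3 were lower.

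Of 15 genes in the hormone and protein kinase A arm that drives lipolysis, 1 rose and 1 fell, with a median of 0.07. The fall was that of the kinase regulatory subunit gene Prkar2a, from 91.5 ± 7.71 to 67.8 ± 1.29 CPM (SD, n = 3). With 1 library left out, each count ranged from 0 to 1. The log2 fold change of the glucagon receptor gene Gcgr was 0.03 (SE 0.13, adjusted p = 0.916).

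Of 15 genes for transcription factors and cofactors known to act on genes of this kind, 5 rose and 4 fell, with a median of 0.25. Ppara, the fatty acid receptor that drives oxidation genes, went from 55.2 ± 5.21 to 85.2 ± 18.3 CPM, and its coactivator Ppargc1a from 6.94 ± 0.782 to 18.5 ± 7.57 CPM (SD, n = 3). The fasting-induced factor Creb3l3 (168 ± 3.22 to 245 ± 21.7 CPM), the hepatocyte factor Hnf4a (424 ± 116 to 731 ± 94.8 CPM) and the oxysterol receptor Nr1h2 (17.3 ± 1.55 to 23.7 ± 3.30 CPM) also rose. Srebf1, which drives lipogenic genes and is known to raise Pnpla3, fell by 2.12 on the log2 scale (SE 0.20, adjusted p = 4.44e-04). The carbohydrate-responsive factor Mlxipl fell from 267 ± 34.7 to 134 ± 44.8 CPM, and Ppard (8.59 ± 1.14 to 5.62 ± 0.91 CPM) and the glucocorticoid receptor gene Nr3c1 (73.1 ± 9.14 to 51.2 ± 5.40 CPM) fell as well. Foxo1, known to raise Pnpla2, did not pass (24.9 ± 10.05 against 46.4 ± 5.26 CPM, adjusted p = 0.0567). With 1 library left out, 0 to 4 of this list were higher and 1 to 3 lower, and with library size only 1 was higher.

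**Figure D5:**
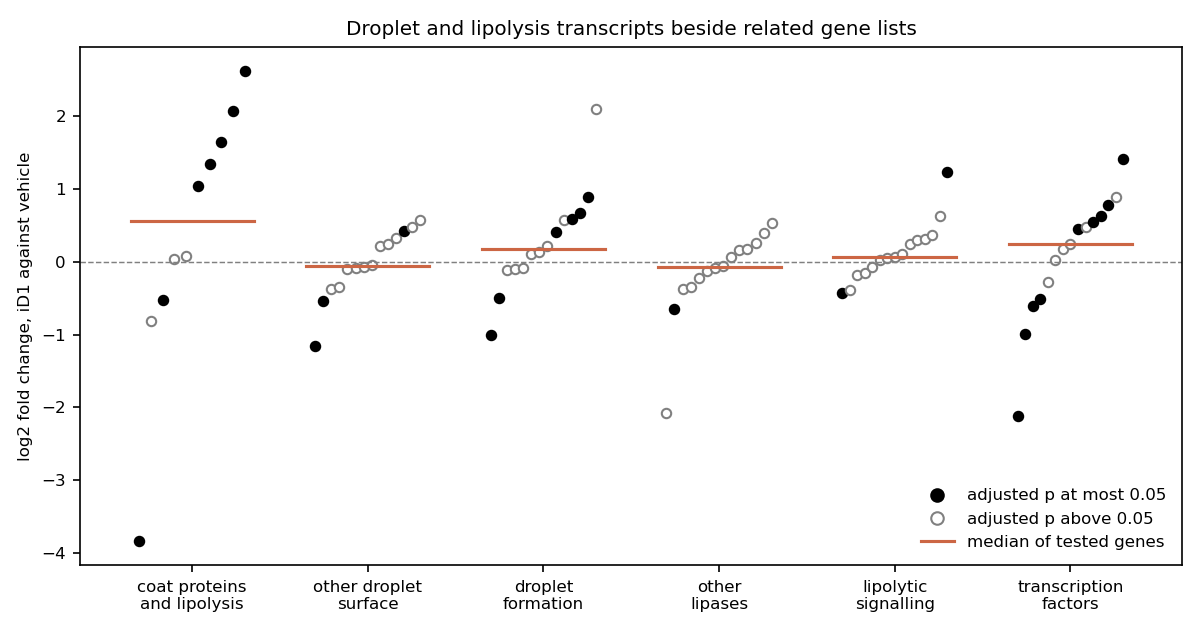
Log2 fold change of iD1 against vehicle for the 10 coat protein and lipolysis transcripts and for the tested genes of 5 related lists, each point a gene (filled where the adjusted p is at most 0.05) and each orange line the median of its list. The 10 transcripts span -3.84 to 2.63 with a median of 0.56, and the medians of the other lists lie between -0.07 and 0.25.

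The labelled tissue was checked against markers. The 9 hepatocyte markers summed to 78643 to 101946 CPM in vehicle and 102288 to 114044 CPM in iD1 libraries, with a narrow gap between the groups. Alb, the largest part of that sum, was at 53693 CPM or more in each library, and its groups overlapped. Of the 9, 4 rose and 0 fell: Apoa1, Hnf4a, Cyp2e1 and Tat, with log2 fold changes of 0.58, 0.78, 0.90 and 1.36. With 1 library left out, Tat was called in all 6 fits, Cyp2e1 in 2, Hnf4a in 1 and Apoa1 in 0. The other markers, Alb, Apob, Ttr, Serpina1a and Ass1, were not called, with log2 fold changes of 0.16, -0.03, -0.06, 0.16 and 0.23. The 4 called markers moved along with the rise of Plin2, Plin4, Plin5, Cidec and Pnpla2, and their part in it was not tested. Since these are whole livers, fewer cells of a type and less RNA per cell cannot be told apart. Adipocytes express Plin4 and Cidec strongly, and of the 9 adipocyte markers 6 could be tested and 0 were called. None of the 9 was at 0 in all 6 libraries, and their sum was 19.2 to 30.3 CPM in vehicle and 14.8 to 59.7 CPM in iD1. Adipoq was at or below 0.964 CPM in every library. The highest sum came from iD1 replicate 2, where Fabp4 was at 35.5 CPM and Ucp1 at 16.6 CPM. The part of fat cells in the rise of Plin4 and Cidec was not tested. Skeletal muscle markers summed to 4.79 CPM or less. Among 9 stellate cell markers, cells that also store lipid, 0 rose and 2 fell: Lrat, from 21.4 ± 3.44 to 6.34 ± 2.21 CPM, and Ngfr, from 1.77 ± 0.537 to 0.456 ± 0.13 CPM (SD, n = 3). Their sum was 177 to 246 CPM in vehicle and 167 to 220 CPM in iD1 libraries. The sums of the 7 Kupffer cell and the 7 endothelial markers overlapped between the groups, with 0 and 1 genes called. Of 4 tested neutrophil markers 3 rose, to no more than 2.54 CPM on average. Of 5 tested cholangiocyte markers 1 rose and 1 fell, and neither the 1 tested lymphocyte marker nor the 1 tested muscle marker was called. The part of other cell types in the changes of the 10 transcripts was not tested.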

How the data were processed

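RNA of 3 vehicle and 3 iD1 livers was measured with a stranded mRNA kit, per the labels' protocols. The authors deposited estimated counts for each gene with no scaling to depth. Aligner, quantifier, build, annotation and strand setting were not given in the sources used here. Of the 60 values of the 10 members, 36 were whole (remainder exactly 0), and estimated counts were rounded before testing. Columns were assigned by name, and the unnumbered vehicle column by its group. Identifiers were matched without version to GENCODE M21 (99.4% of 34866). Promoter sequences came from RefSeq (GRCm38.p6), where all 10 members matched; no protein sequence was used.

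Genes were filtered by filterByExpr (minimum count 10, minimum total 15), scaled by TMM and compared with edgeR 4.0.16 (quasi-likelihood F test, robust, two-sided, R 4.3.3), with Benjamini-Hochberg adjustment over 13718 genes. The standard error is the size of the log2 fold change over the square root of F. The fit was also run on simulated data, and nothing reported here rests on that run. Alternatives were other scalings, filters and thresholds, unrounded counts, non-robust shrinkage, DESeq2 1.42.0, limma-voom (limma 3.58.1), a replicate block and leaving out each library. No within-group pair of libraries agreed within sampling noise (chi-square per degree of freedom 38.4 or more).

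The members and lists were chosen with earlier results of these data known. The text names all 10 members, up to 8 called genes of each related list by p-value, or its most abundant members where fewer than 2 were called, and, of neighbours, only genes within 5 kb of a member or sharing its exons. Dgat2, Lpin1, Gpat4, Gcgr, Hsd17b13, Foxo1, Plin1, Cidea, Lipe, Mgll and the other patatin-like genes were named after their values were seen. Correlations over the pooled groups are not given, since the libraries form 2 groups. The values of 1 called gene of the related lists are not reported here.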

Additional observations from a re-analysis of the deposited data

How the results depend on the processing

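Plin4, Plin5 and Pnpla2 kept direction and call under all 18 alternatives, with log2 fold changes of 2.44 to 2.87, 1.15 to 1.48 and 1.84 to 2.23. Plin2, Cidec, Pnpla3, Abhd5 and G0s2 kept their direction under all 18, and Plin2 stayed called in 11, Cidec in 15, Pnpla3 in 10 and Abhd5 in 8. Plin3 and Cideb were called in none. At an adjusted p of 0.01 there were 825 called genes, 3 members (3 higher, 0 lower) and 3 genes of the related lists. The count of members lower was 1 with limma-voom, with no filter on low counts and with non-robust shrinkage. Leaving out 1 library gave 1212 to 2574 called genes, 4 to 6 members, of which 3 to 5 were higher and 0 to 1 lower, and 4 to 20 genes of the related lists. Of the 2293 called genes, 929 stayed called without each library in turn. Higher calls made up 50.4% of all calls, 38.4% with upper-quartile scaling and 24.1% with library size only, under which the median change over all tested genes was -0.20 on the log2 scale.

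The replicate block could be fitted only over the 4 libraries whose numbers 1 and 2 occur in both groups, and nothing in the labels says that a number marks shared animals or days. Same-numbered libraries had correlations of 0.17 and -0.13 between their deviations from the group means. With the replicate block 768 genes were called, 4 members (0 lower) and 4 genes of the related lists. The same 4 libraries without the block, an alternative chosen after seeing the data, gave 521 genes, 3 members (3 higher, 0 lower) and 1 gene of the related lists.

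Depth limits Pnpla3 most, with 3.46 estimated counts in its lowest library. With the longest transcript as length, the levels per kb of Plin2 were 98.0 in vehicle and 202 in iD1.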
